A study of Mus musculus with 6 samples.

Results

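The genes described here encode the Fc receptors of the mouse that bind the constant part of immunoglobulin G, namely Fcgr1, Fcgr3, Fcgr4 and Fcgr2b, together with Fcer1g, the signalling chain that the activating receptors share. These 5 genes, of 50379 gene IDs used, were selected by gene symbol, with their FPKM values over the 3 groups already known. Their levels are therefore given as a description, and the number of them called in a fit across all genes is printed only beside the same share over all genes, with nothing read from it. FPKM counts fragments scaled by transcript length and by library size. Levels can be set side by side between genes of a library, and between libraries only as values relative to each library's fragments.

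Fc receptors let a cell respond to antibody bound to its target. The activating receptors signal through the immunoreceptor tyrosine-based activation motif (ITAM) of the gamma chain, which Src family kinases phosphorylate and Syk binds, and this leads to phagocytosis and release of inflammatory mediators. Fcgr2b instead carries an inhibitory motif (ITIM) in its own tail and recruits the phosphatase Inpp5d, so the balance of activating and inhibitory receptors sets the threshold of the response. In the brain these receptors are known mainly from microglia and from the macrophages of its borders.

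RNA was sequenced from the lateral amygdala, the part of the amygdala that is central to fear learning, in male 129xC57BL/6 hybrid mice of 2 to 3 months. There were 2 libraries labelled Baf53b siRNA, 2 labelled scrambled siRNA and 2 labelled control. Baf53b, encoded by Actl6b, is a neuron-specific subunit of the BAF chromatin remodelling complex, and the series design describes injection of siRNA against it 1 day after training. The labels do not give the treatment of control mice, the time of the scrambled siRNA injection, or whether each library is a pool; the protocol mentions tissue of 4 mice. With 2 libraries a group, every p-value below measures the spread between these libraries only.

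Actl6b had 42.8 and 39.6 FPKM in Baf53b siRNA and 43.8 and 43.9 FPKM in scrambled siRNA, against 42.9 and 44.1 FPKM in control. A lower level of the targeted gene was not detectable (log2 difference −0.09 against scrambled siRNA, 95% interval −0.38 to 0.21, adjusted p = 1 in limma), so all directions below refer to the libraries as labelled. The 14 markers of the amygdala and neighbouring telencephalon summed to 587 to 677 FPKM in Baf53b siRNA and 622 to 663 FPKM in scrambled siRNA, against 616 to 653 FPKM in control. Of these, 13 passed the filter on low values, with a median log2 difference of −0.11 in Baf53b siRNA against control. In that comparison 1 of the 13, Prkcd, was called higher in limma. It had 6.28 and 8.93 FPKM in Baf53b siRNA and 4.51 and 4.37 FPKM in scrambled siRNA, against 3.14 and 2.46 FPKM in control. A sum of the list does not show such single genes. The depth implied by the deposited intervals was 6.42 M to 10.7 M fragments a library.

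Fcgr1 encodes the activating receptor with high affinity for immunoglobulin G (ENSMUSG00000015947.10, mm10 chromosome 3, 96282909 to 96293969, minus strand). It had 5.52 and 4.05 FPKM in Baf53b siRNA and 2.69 and 2.34 FPKM in scrambled siRNA, against 0.690 and 1.36 FPKM in control, the values standing in the order of replicates 1 and 2 here and below. The 3 groups did not overlap, and the 2 control libraries differed from each other more in proportion than the libraries of the other groups. The group means were 4.79 ± 1.04 FPKM in Baf53b siRNA and 2.52 ± 0.251 FPKM in scrambled siRNA, against 1.03 ± 0.476 FPKM in control (SD, n = 2 each).

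The stretch before the start of Fcgr1 is shown because interferon-responsive and myeloid genes are often read for short elements there. It covers the 250 bases before the start in RefSeq (GRCm38.p6, chr3:96293970-96294219, minus strand), and no annotated exon lies in it. Capitals mark, in order, a match to the gamma-activated site TTCNNNGAA and a match to GAGGAA, the core bound by PU.1 type ETS factors, read on the opposite strand.
Fcgr1: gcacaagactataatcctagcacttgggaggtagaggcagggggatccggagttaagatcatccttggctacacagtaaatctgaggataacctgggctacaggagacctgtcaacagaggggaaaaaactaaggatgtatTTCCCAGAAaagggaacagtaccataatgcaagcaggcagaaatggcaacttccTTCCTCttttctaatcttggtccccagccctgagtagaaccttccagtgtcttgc
The first match began 109 bases before the start and the second 55 bases before it. Searched on both strands, TTCNNNGAA was in 7.02% of 32851 RefSeq promoters of the same length and GAGGAA in 23.3%, so such matches are descriptions of the letters and not sites.

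Fcgr4 encodes an activating receptor of intermediate affinity that is found on myeloid cells of mice (ENSMUSG00000059089.4, mm10 chromosome 1, 171018920 to 171029761, plus strand). It had 2.56 and 2.03 FPKM in Baf53b siRNA and 0.411 and 1.08 FPKM in scrambled siRNA, against 0.117 and 0.0335 FPKM in control. Again no group overlapped another, and Fcgr4 was close to the limit of detection in control. Its implied fragments were 53 and 49 in Baf53b siRNA and 7 and 33 in scrambled siRNA, against 3 and 1 in control.

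Over the implied fragments, scaled to the depth of the libraries, the ratio of Fcgr4 was 30.4 in Baf53b siRNA over control (95% interval 11.5 to 114), 2.70 in Baf53b siRNA over scrambled siRNA (1.85 to 3.99) and 11.3 in scrambled siRNA over control (4.07 to 43.3). These exact binomial intervals cover counting error only. The mean of Fcgr4 over the 6 libraries was 1.04 FPKM, just above the minimum of 1, so it passed the filter only through the groups in which it was high.

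The promoter of Fcgr4 is printed for the same reason as that of Fcgr1 (RefSeq, GRCm38.p6, chr1:171018676-171018925, plus strand); its last bases are annotated as the first exon of Fcgr4. Capitals mark a match to the interferon-stimulated response element (a pair of GAAA copies with 2 bases between them), which began 73 bases before the start, and a match to GAGGAA on the opposite strand, 22 bases before it.
Fcgr4: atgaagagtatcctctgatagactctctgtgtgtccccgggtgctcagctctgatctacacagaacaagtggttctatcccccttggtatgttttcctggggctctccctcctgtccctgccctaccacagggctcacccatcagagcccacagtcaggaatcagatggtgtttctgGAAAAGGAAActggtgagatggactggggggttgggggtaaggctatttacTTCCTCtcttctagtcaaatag
That element was in 2.98% of all promoters. The windows of Fcgr2b and Fcer1g held none of these letters. That of Fcgr3 held GAGGAA on the opposite strand, 6 or 15 bases before the start according to which of 2 RefSeq starts is used. The windows of these 3 genes overlap annotated exons of the gene itself. Those of Fcgr2b and Fcgr3 lie inside the gene positions given here, so they are not the stretch before the outermost start.

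Fcgr3 encodes the low-affinity activating receptor for immune complexes (ENSMUSG00000059498.13, mm10 chromosome 1, 171051174 to 171064935, minus strand). Its level was 27.7 and 24.5 FPKM in Baf53b siRNA and 16.5 and 18.2 FPKM in scrambled siRNA, against 8.11 and 9.23 FPKM in control. The groups were well apart, with each pair of libraries closer together than any library to the next group. The means were 26.1 ± 2.26 FPKM in Baf53b siRNA and 17.4 ± 1.20 FPKM in scrambled siRNA, against 8.67 ± 0.791 FPKM in control (SD, n = 2 each).

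Fcer1g encodes the common gamma chain, which the activating receptors need for their assembly at the cell surface and for signalling (ENSMUSG00000058715.11, mm10 chromosome 1, 171229572 to 171234365, minus strand). It had 37.9 and 27.2 FPKM in Baf53b siRNA and 21.3 and 19.4 FPKM in scrambled siRNA, against 10.5 and 11.8 FPKM in control. Replicate 1 of Baf53b siRNA stood above replicate 2, and both stood above every library of the other groups. The means were 32.5 ± 7.57 FPKM in Baf53b siRNA and 20.3 ± 1.36 FPKM in scrambled siRNA, against 11.1 ± 0.925 FPKM in control (SD, n = 2 each).

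Fcgr2b, the inhibitory receptor (ENSMUSG00000026656.15, mm10 chromosome 1, 170958617 to 170976547, minus strand), had 13.6 and 11.9 FPKM in Baf53b siRNA and 7.91 and 7.46 FPKM in scrambled siRNA, against 3.84 and 3.40 FPKM in control. Here too no group overlapped another. The means were 12.8 ± 1.18 FPKM in Baf53b siRNA and 7.69 ± 0.323 FPKM in scrambled siRNA, against 3.62 ± 0.314 FPKM in control (SD, n = 2 each).

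**Figure D1:**
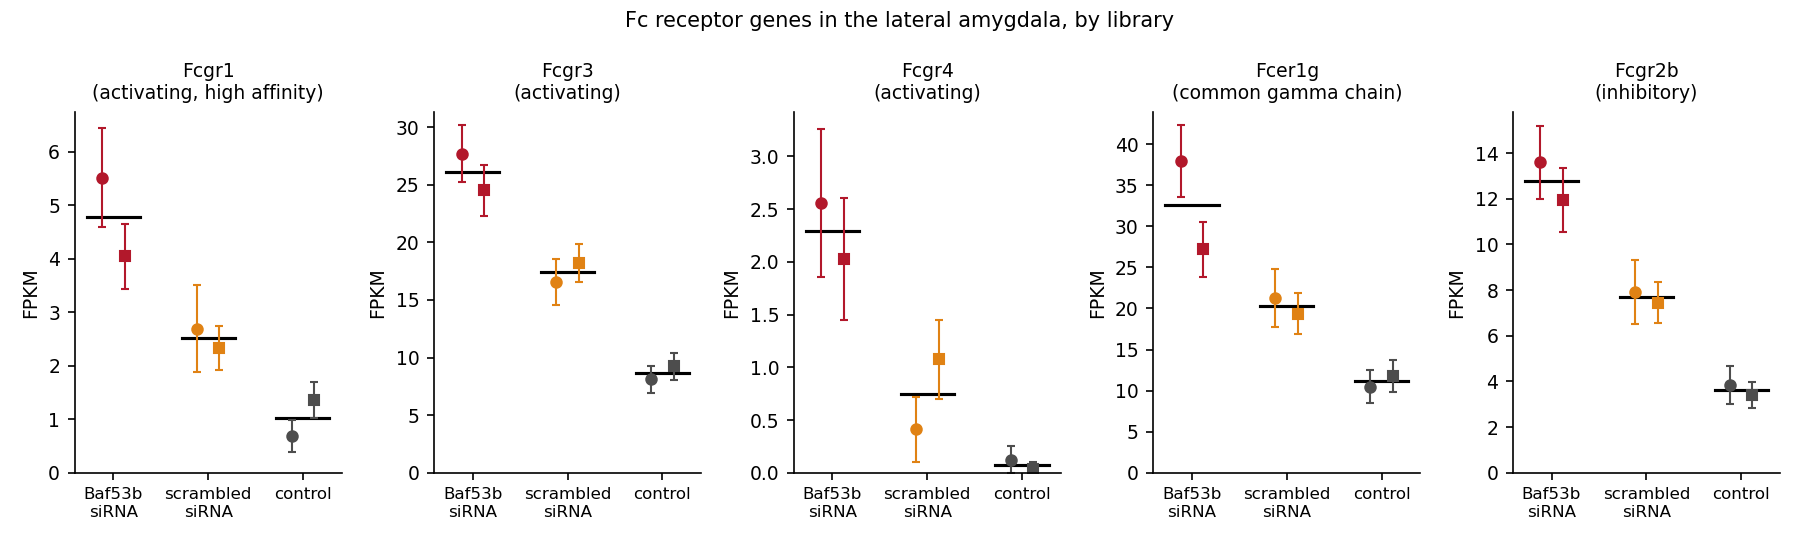
FPKM (vertical axes, linear, 1 scale per gene) of each Fc receptor gene in each library, with circles for replicate 1 and squares for replicate 2 of Baf53b siRNA, scrambled siRNA and control. Black lines are group means and error bars are the confidence intervals the authors deposited with each FPKM; for each gene both Baf53b siRNA libraries lie above both scrambled siRNA libraries, which lie above both control libraries.

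Fcgr2b and Fcgr3 are close relatives, and their coding sequences were identical at 87.3% of aligned bases. The longest exact run they share is printed because reads inside it cannot be assigned to either gene. It begins at base 278 of the Fcgr2b coding sequence (GRCm38, GENCODE M21, chr1:170966674-170968081, minus strand) and at base 263 of the Fcgr3 coding sequence (chr1:171054167-171057792, minus strand), and it crosses an intron in both genes.
Fcgr2b and Fcgr3: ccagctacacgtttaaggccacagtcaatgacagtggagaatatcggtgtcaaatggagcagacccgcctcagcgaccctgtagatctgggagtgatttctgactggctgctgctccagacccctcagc
The run is 129 bases long. Of all runs of 50 bases in the transcripts of Fcgr3, 9.58% occur also in Fcgr2b, while 2.92% of those of Fcgr2b occur in Fcgr3, so the split of reads between both genes is uncertain to that extent. Genes other than the members hold 1.46% of the runs of Fcgr2b, so 4.38% of its runs occur in some other gene. Fcgr1, Fcgr4 and Fcer1g shared no run of that length with another gene.

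The 5 genes kept the same order of FPKM in all 6 libraries, with Fcer1g highest, then Fcgr3, Fcgr2b, Fcgr1 and Fcgr4. Fcer1g and Fcgr3 were not separable in 5 of 6 libraries, where their deposited intervals overlapped; the other neighbours in that order had separate intervals in each library. The summed level of the 4 receptors was 49.4 and 42.5 FPKM in Baf53b siRNA and 27.6 and 29.1 FPKM in scrambled siRNA, against 12.8 and 14.0 FPKM in control.

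In proportion, the make-up of that sum differed most for Fcgr4. Fcgr4 contributed 5.18% and 4.77% of it in Baf53b siRNA, 1.49% and 3.69% in scrambled siRNA, and 0.914% and 0.239% in control. Fcgr3 contributed 56.1% and 57.6% in Baf53b siRNA, 60.0% and 62.6% in scrambled siRNA, and 63.6% and 65.8% in control. Both shares kept the groups apart, in opposite order. The share of Fcgr2b did not separate the groups, at 27.5% and 28.1% in Baf53b siRNA, 28.7% and 25.6% in scrambled siRNA, and 30.1% and 24.2% in control. The share of Fcgr1 also overlapped, at 11.2% and 9.53% in Baf53b siRNA, 9.77% and 8.03% in scrambled siRNA, and 5.41% and 9.72% in control.

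The activating receptors Fcgr1, Fcgr3 and Fcgr4 together were 2.63 and 2.56 times Fcgr2b in Baf53b siRNA, 2.48 and 2.90 times in scrambled siRNA, and 2.32 and 3.13 times in control. The groups overlapped on this ratio of activating to inhibitory receptor RNA. Fcer1g over the summed activating receptors was 1.06 and 0.889 in Baf53b siRNA, 1.08 and 0.895 in scrambled siRNA, and 1.17 and 1.11 in control. The control libraries were the highest on that ratio, and the siRNA groups overlapped each other.

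**Figure D2:**
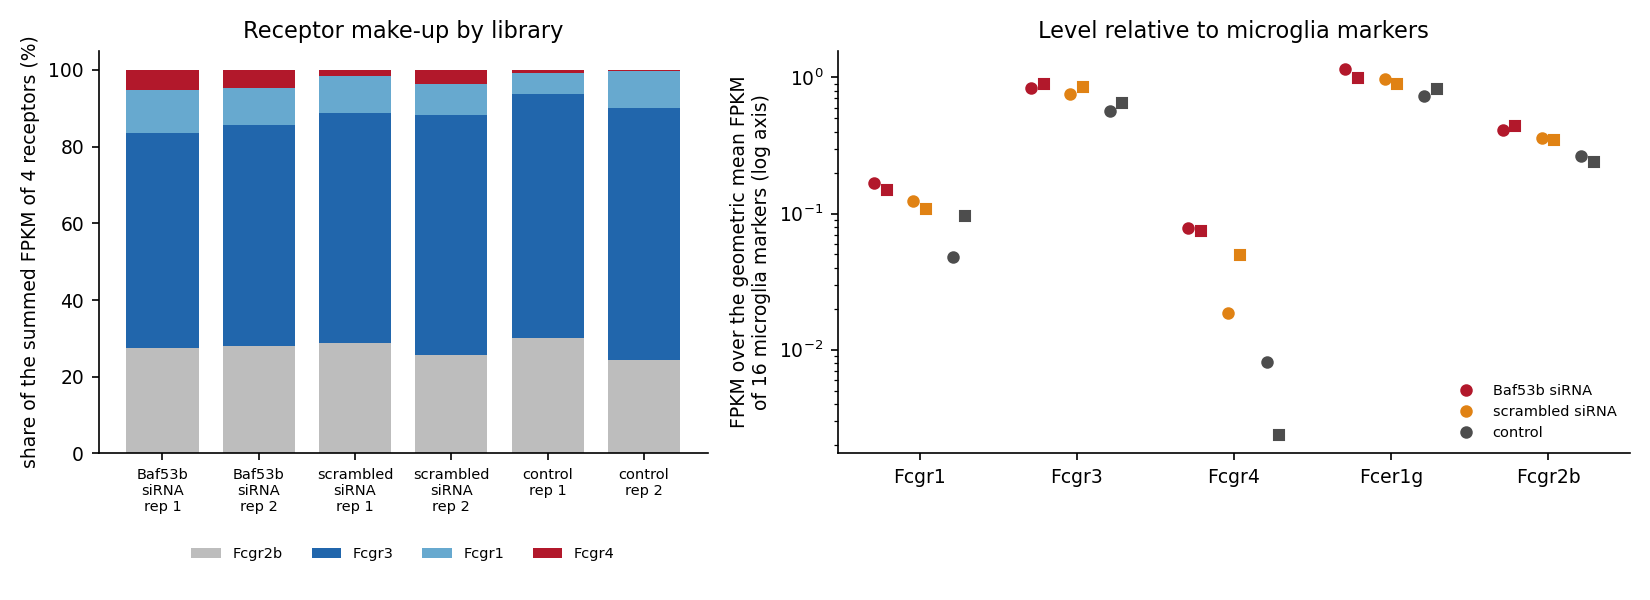
Left, share of the summed FPKM of the 4 receptors (%, linear axis) held by each receptor in each library, with Fcgr4 at 5.18% and 4.77% in Baf53b siRNA and below 1% in control. Right, FPKM of each gene over the geometric mean FPKM of 16 microglia markers (log axis), with circles for replicate 1 and squares for replicate 2; the control libraries are the lowest for each gene.

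The Baf53b siRNA and scrambled siRNA groups were compared first, since both received an siRNA. All 5 genes were higher in Baf53b siRNA, by 1.5-fold for Fcgr3, 1.60-fold for Fcer1g, 1.66-fold for Fcgr2b, 1.90-fold for Fcgr1 and 3.09-fold for Fcgr4, as ratios of mean FPKM. In log2(FPKM + 1), where the change of a low gene such as Fcgr4 comes out too small, the differences were 0.56 (SE 0.14), 0.64 (SE 0.18), 0.66 (SE 0.15), 0.71 (SE 0.22) and 0.94 (SE 0.23) in the same order. The median of the 5 was 0.66, beside 0.00 over the 14664 genes tested.

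None of the 5 genes passed an adjusted p of 0.05 in limma in that comparison, where 0.123% of all genes tested did (18 genes, all higher), while each of the 5 was higher at an unadjusted p under 0.05, as were 391 of all genes, with 53 lower. Both Baf53b siRNA libraries stood above both scrambled siRNA libraries for 5 of 5 members and for 13.1% of all genes. Since the members were chosen with these values known, neither count is read as a result.

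The pathway around the receptors was described by 4 lists with 84 genes, of which 46 passed the filter. None passed in limma in Baf53b siRNA against scrambled siRNA, and 17 were higher and 0 lower at an unadjusted p under 0.05. The median log2 difference of the 46 genes was 0.40. Rac2, a small GTPase of blood cells that drives actin remodelling, averaged 4.45 ± 0.827 FPKM in Baf53b siRNA and 1.83 ± 0.0367 FPKM in scrambled siRNA (SD, n = 2 each; log2 difference 0.94, limma adjusted p = 0.270). Ptpn6, the phosphatase SHP-1 that binds ITIMs, averaged 8.76 ± 1.71 FPKM in Baf53b siRNA and 3.90 ± 1.93 FPKM in scrambled siRNA (SD, n = 2 each; log2 difference 1.04, limma adjusted p = 0.746).

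Of the 14 genes of the wider Fc receptor family, 3 passed the filter. Fcgrt, the neonatal Fc receptor that carries antibody across cells, had a log2 difference of 0.13 (95% interval −0.23 to 0.48). For Trim21, the cytosolic antibody receptor, it was 0.43 (0.01 to 0.86), and for Fcrls, an Fc receptor-like gene of mouse microglia, it was −0.18 (−0.58 to 0.22), each with an adjusted p of 1 in limma. As a ratio of mean FPKM, Baf53b siRNA over scrambled siRNA was 1.70 for Trim21, above that of Fcgr3, Fcer1g and Fcgr2b. Among the untested genes of the family, Fcrla had 0.600 and 0.351 FPKM in Baf53b siRNA and 0 and 0.116 FPKM in scrambled siRNA, and was listed at 0 in both control libraries. Cd247, an ITAM chain of T and natural killer cells, had 0.390 and 0.298 FPKM in Baf53b siRNA and 0 and 0.118 FPKM in scrambled siRNA, against 0.0664 and 0.0486 FPKM in control; both genes were named after their values were seen. Fcer1a, the alpha chain of the immunoglobulin E receptor that also uses Fcer1g, was listed at 0 in each library, as was Fcamr.

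The Baf53b siRNA and control groups differed more. Fcer1g was 2.93-fold higher in Baf53b siRNA, Fcgr3 3.01-fold, Fcgr2b 3.53-fold and Fcgr1 4.66-fold, as ratios of mean FPKM, and for Fcgr4 the fragment ratio given above applies. The log2(FPKM + 1) differences lay close together, at 1.45 (SE 0.18) for Fcer1g, 1.49 (SE 0.14) for Fcgr3, 1.52 (SE 0.22) for Fcgr1, 1.58 (SE 0.15) for Fcgr2b and 1.61 (SE 0.23) for Fcgr4. Their median was 1.52, beside 0.04 over all genes tested.

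The number of members past the threshold in limma was 5 of 5, beside 1.23% of all genes tested (181 genes, all higher), and 3 of 5 passed with the replicate number as a block, Fcgr1 and Fcgr4 being lost; Fcgr4 was lost also with each library scaled to an equal median. Both Baf53b siRNA libraries stood above both control libraries for 5 members and for 16.7% of all genes. Again neither count is read as a result, and Fcgr4 was counted only because its level outside control took it past the filter. The count moved with single libraries: without Baf53b siRNA replicate 1, 0 of the 4 members that still passed the filter were called, and 3 of 4 without Baf53b siRNA replicate 2, 2 of 5 without control replicate 1 and 3 of 5 without control replicate 2. The direction of the members was positive in each of these fits.

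Of the 46 pathway genes tested, 11 rose in Baf53b siRNA against control and none fell (limma), with a median log2 difference of 0.48. The activating list supplied 6 of 27, all of which act downstream of ITAM receptors. The Src family kinase Lyn averaged 5.71 ± 0.632 FPKM in Baf53b siRNA and 2.06 ± 0.229 FPKM in control (SD, n = 2 each; log2 difference 1.13, limma adjusted p = 0.0233). For Rac2 the log2 difference was 1.61 (limma adjusted p = 0.0111).

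Arpc1b, a subunit of the Arp2/3 complex that builds branched actin, averaged 27.5 ± 1.96 FPKM in Baf53b siRNA and 8.75 ± 0.562 FPKM in control (SD, n = 2 each; log2 difference 1.55, limma adjusted p = 0.00603). The Rac exchange factor Vav1 (log2 difference 1.28, limma adjusted p = 0.0190) and the kinase Prkcd (1.17, limma adjusted p = 0.0477, or 0.0757 with the replicate block), which is also known from neurons of the central amygdala, were among the 6 and were named after their values were seen. Syk itself, named in the same way, had 1.69 and 1.86 FPKM in Baf53b siRNA and 1.09 and 0.944 FPKM in scrambled siRNA, against 0.664 and 0.700 FPKM in control, and did not pass in limma in any comparison.

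Of 13 tested genes of the inhibitory and ITIM list, 3 rose in Baf53b siRNA against control. They were the receptors Lair1, which binds collagen (log2 difference 1.04, limma adjusted p = 0.0200), Clec4a2, a C-type lectin (1.27, limma adjusted p = 0.0233), and Cd33, which binds sialic acid (1.27, limma adjusted p = 0.0226). Inpp5d, the phosphatase recruited by Fcgr2b and likewise named after its values were seen, had 9.24 and 10.3 FPKM in Baf53b siRNA and 7.01 and 7.91 FPKM in scrambled siRNA, against 4.95 and 5.74 FPKM in control, and did not pass in limma (log2 difference 0.76 against control, adjusted p = 0.0959). Ptpn6 had a log2 difference of 1.49 against control with an adjusted p of 0.0992 in limma.

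Of the other ITAM adaptors and their receptors, 3 of 17 were tested and 2 rose in Baf53b siRNA against control. Tyrobp, the adaptor DAP12 whose ITAM serves other myeloid receptors, averaged 87.5 ± 12.4 FPKM in Baf53b siRNA and 24.8 ± 2.26 FPKM in control (SD, n = 2 each; log2 difference 1.77, limma adjusted p = 0.00603). Trem2, a lipid receptor that signals through Tyrobp, averaged 22.8 ± 3.46 FPKM in Baf53b siRNA and 7.05 ± 0.117 FPKM in control (log2 difference 1.56, limma adjusted p = 0.0109). Clec5a, a lectin that also uses Tyrobp, had a log2 difference of 0.84 (limma adjusted p = 0.431). Fcer1g stood at 0.393 and 0.345 of the Tyrobp level in Baf53b siRNA, 0.363 and 0.386 in scrambled siRNA, and 0.396 and 0.506 in control. The siRNA groups overlapped each other, and both control libraries lay above them, replicate 1 only narrowly.

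The count of 11 pathway genes fell to 0 without Baf53b siRNA replicate 1, 4 without Baf53b siRNA replicate 2, 3 without control replicate 1 and 2 without control replicate 2. With each library scaled to an equal median it was 7. None of the 3 tested genes of the wider Fc receptor family passed in Baf53b siRNA against control, where 1 was higher at an unadjusted p under 0.05; the log2 differences were 0.28 for Fcgrt, 0.82 for Trim21 (limma adjusted p = 0.143; ratio of mean FPKM 3.18) and 0.19 for Fcrls.

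**Figure D3:**
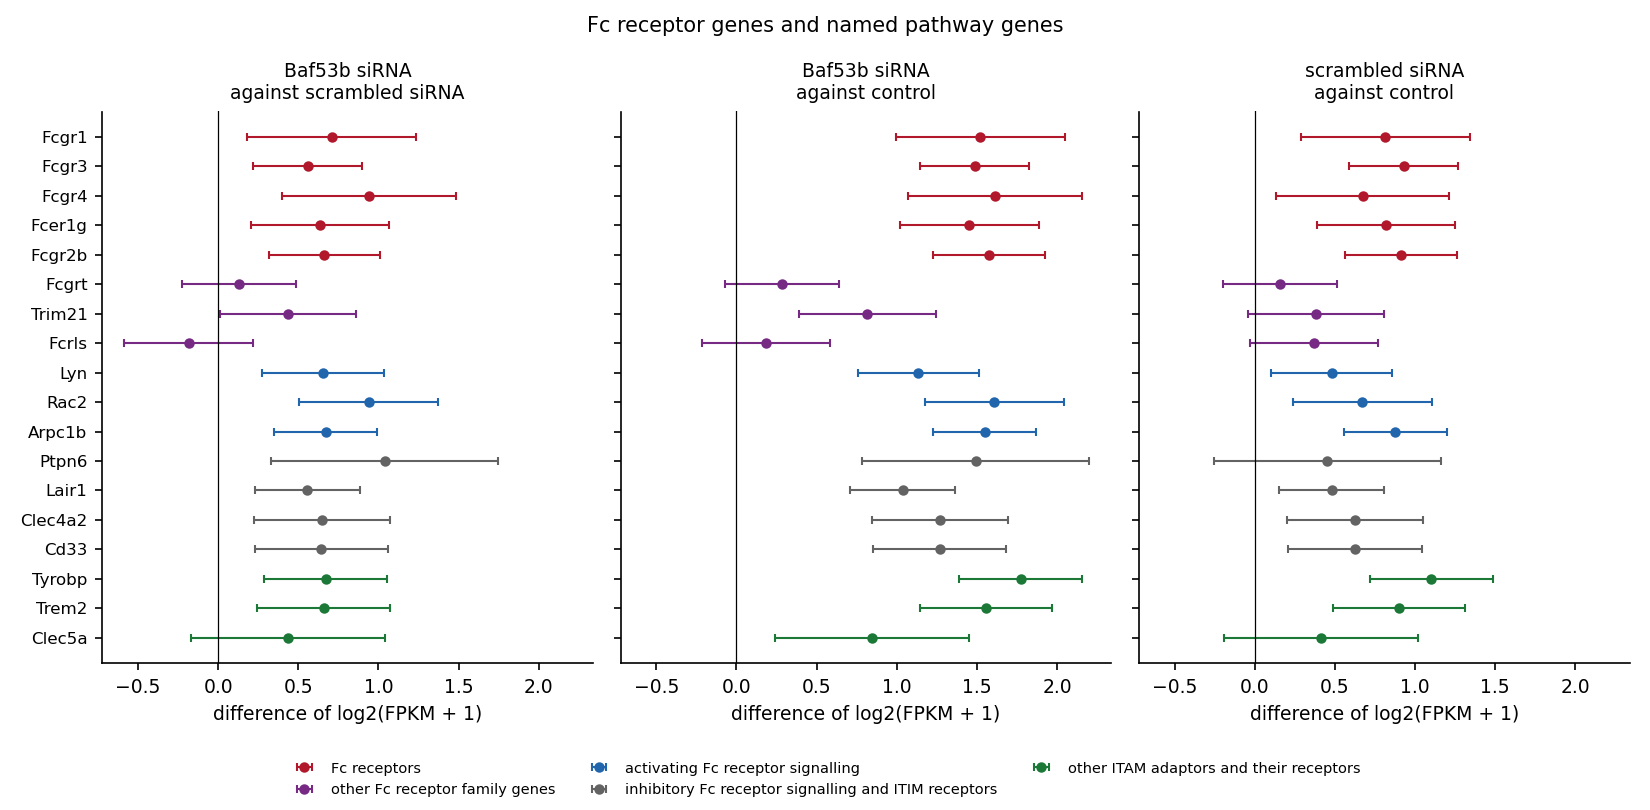
Differences of log2(FPKM + 1) (horizontal axes) with 95% intervals from limma for the 5 Fc receptor genes and genes of the 4 pathway lists named by rule, in Baf53b siRNA against scrambled siRNA, Baf53b siRNA against control and scrambled siRNA against control. The 5 Fc receptor genes lie between 0.56 and 0.94 in the first panel, between 1.45 and 1.61 in the second and between 0.67 and 0.93 in the third, while Fcgrt and Fcrls have intervals that include 0 in each.

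The scrambled siRNA and control groups were compared last. The 5 genes were higher in scrambled siRNA, by 1.83-fold for Fcer1g, 2.01-fold for Fcgr3, 2.12-fold for Fcgr2b and 2.45-fold for Fcgr1, and for Fcgr4 the fragment ratio above applies. The log2(FPKM + 1) differences were 0.82 for Fcer1g, 0.93 for Fcgr3, 0.91 for Fcgr2b, 0.81 for Fcgr1 and 0.67 for Fcgr4, with the same SE as above, and a median of 0.82 beside 0.04 over all genes tested. For Fcgr3, Fcgr2b, Fcgr1 and Fcer1g the difference of scrambled siRNA from control was larger on this scale than that of Baf53b siRNA from scrambled siRNA, and for Fcgr4 it was smaller, although on fragments the ratio of Fcgr4 was larger between scrambled siRNA and control (11.3) than between Baf53b siRNA and scrambled siRNA (2.70); both comparisons share the scrambled siRNA libraries, and the order was not tested.

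No member and no other gene passed in limma in scrambled siRNA against control, a background of 0%, while 5 members and 298 genes were higher and 27 genes lower at an unadjusted p under 0.05. Both scrambled siRNA libraries stood above both control libraries for 5 members and for 12.7% of all genes. Of the 46 pathway genes none passed and 14 were higher at an unadjusted p under 0.05, with a median log2 difference of 0.27. Tyrobp had the largest difference of the named pathway genes, at 1.10 (limma adjusted p = 0.328).

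Markers of microglia differed between the groups alongside the Fc receptor genes. Of 16 markers, 0 passed in limma in Baf53b siRNA against scrambled siRNA (7 higher at an unadjusted p under 0.05), 7 rose in Baf53b siRNA against control and 0 passed in scrambled siRNA against control (10 higher at an unadjusted p under 0.05). Their summed level was 716 to 891 FPKM in Baf53b siRNA and 521 to 530 FPKM in scrambled siRNA, against 325 to 333 FPKM in control, and none was at 0. The markers called against control included Cx3cr1, Aif1, Itgam and the complement genes C1qa, C1qb and C1qc, while P2ry12, a purine receptor of microglia that was not called, had 59.1 and 59.9 FPKM in Baf53b siRNA and 54.8 and 52.3 FPKM in scrambled siRNA, against 49.1 and 44.0 FPKM in control. In tissue RNA, more cells of a type and more RNA per cell cannot be told apart.

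The geometric mean of the 16 markers was 32.9 and 27.4 FPKM in Baf53b siRNA and 21.9 and 21.6 FPKM in scrambled siRNA, against 14.4 and 14.2 FPKM in control, a ratio of means of 2.1 in Baf53b siRNA over control. Relative to that mean, Fcer1g was 1.38 times as high in Baf53b siRNA as in control, Fcgr3 1.43 times, Fcgr2b 1.68 times and Fcgr1 2.2 times. Fcgr4 was 14.6 times as high, a ratio of uncertain size since Fcgr4 had 3 and 1 implied fragments in control. In Baf53b siRNA over scrambled siRNA the same ratios were 1.09 for Fcgr3, 1.15 for Fcer1g, 1.20 for Fcgr2b, 1.37 for Fcgr1 and 2.21 for Fcgr4. Taken per library, Fcgr2b stood at 0.413 and 0.436 of the marker mean in Baf53b siRNA, 0.361 and 0.346 in scrambled siRNA, and 0.266 and 0.239 in control.

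Fcgr3 stood at 0.841 and 0.896 of the marker mean in Baf53b siRNA, 0.754 and 0.845 in scrambled siRNA, and 0.562 and 0.649 in control, so the siRNA groups overlapped while control lay below both. Fcgr1 stood at 0.168 and 0.148 in Baf53b siRNA, 0.123 and 0.108 in scrambled siRNA, and 0.0478 and 0.0959 in control. Relative to the marker mean the remaining 4 genes kept the groups apart in every pair. The share of all genes that do so on this scale was not computed, and the members were chosen with their values known. That count is therefore not read as a result. Markers within the list also stood above that mean: in Baf53b siRNA over control the ratio of mean FPKM was 4.29 for C1qa, 3.88 for C1qb, 3.8 for C1qc and 3.41 for Aif1, beside 2.93 to 4.66 for Fcer1g, Fcgr3, Fcgr2b and Fcgr1. The part of cell number in the levels of the Fc receptor genes was not tested.

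Markers of other blood cells that carry Fc receptors were low, and several were higher in the Baf53b siRNA libraries. The 12 markers of monocytes and border macrophages summed to 16.1 to 19.7 FPKM in Baf53b siRNA and 8.76 to 10.5 FPKM in scrambled siRNA, against 6.84 to 7.75 FPKM in control, and 1 of the 3 tested, Plac8, rose in Baf53b siRNA against control in limma. Ccr2, the chemokine receptor that defines recruited monocytes, had 1.54 and 1.63 FPKM in Baf53b siRNA and 0.208 and 0.447 FPKM in scrambled siRNA, against 0.0617 and 0.0984 FPKM in control. That order of groups is the one seen for all 5 Fc receptor genes, but the whole list did not follow it. Lyve1 was highest in control (0.199 and 0.232 FPKM, against 0.171 and 0.141 FPKM in Baf53b siRNA), and Pf4 and Cbr2 overlapped between the groups. Chil3 had 0 and 3.70 FPKM in Baf53b siRNA. Ccr2 and these markers were named after their values were seen, and the part of such cells in the Fc receptor levels was not tested.

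The 12 neutrophil markers summed to 1.82 to 7.51 FPKM in Baf53b siRNA and 1.42 to 2.34 FPKM in scrambled siRNA, against 0.543 to 0.746 FPKM in control, with Ly6g, Ngp, Elane and Stfa2l1 at 0 in each library. The highest sum was mostly Retnlg, which had 0.247 and 5.90 FPKM in Baf53b siRNA. S100a9 was highest in scrambled siRNA replicate 2 (1.38 FPKM) and Cxcr2 in control replicate 2 (0.494 FPKM). The 12 natural killer and T cell markers summed to 5.99 to 13.6 FPKM in Baf53b siRNA and 1.70 to 2.50 FPKM in scrambled siRNA, against 0.755 to 1.35 FPKM in control. The 8 B cell markers summed to 2.03 to 3.31 FPKM in Baf53b siRNA and 0.915 to 1.09 FPKM in scrambled siRNA, against 0.683 to 1.16 FPKM in control. Mast cells also use Fcer1g; their 9 markers, whose sum is mostly Kit, overlapped between the groups in sum, at 7.67 to 10.8 FPKM in Baf53b siRNA and 8.24 to 10.5 FPKM in scrambled siRNA, against 8.16 to 8.53 FPKM in control. Named after their values were seen, the mast cell protease genes Cpa3, Cma1, Tpsb2 and Tpsab1 were low but higher in both Baf53b siRNA libraries than in the other 4. Cpa3, for example, had 0.163 and 1.10 FPKM in Baf53b siRNA and 0.0497 and 0 FPKM in scrambled siRNA, and was listed at 0 in both control libraries. The rest of the list went otherwise. The protease gene Mcpt4 had 0 and 0.161 FPKM in Baf53b siRNA, and Hdc did not separate Baf53b siRNA from the other groups. Kit was lower in both Baf53b siRNA libraries (6.72 and 5.96 FPKM) than in the other 4. The part of these cells in the levels of the Fc receptor genes was not tested.

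Summed neuron markers overlapped between the 3 groups, and summed astrocyte markers were higher in Baf53b siRNA than in control, with scrambled siRNA overlapping both. The 9 matched neuron markers summed to 2735 to 3271 FPKM in Baf53b siRNA and 3028 to 3336 FPKM in scrambled siRNA, against 2954 to 3185 FPKM in control, with 0 called in limma in any comparison and 0 higher at an unadjusted p under 0.05. In Baf53b siRNA, 0 of the 9 had a positive log2 difference against scrambled siRNA (median −0.09) and 2 had one against control (median −0.05). The 10 astrocyte markers summed to 1055 to 1060 FPKM in Baf53b siRNA and 994 to 1099 FPKM in scrambled siRNA, against 953 to 1041 FPKM in control, and 1 of them, the water channel gene Aqp4, rose in Baf53b siRNA against control in limma; their part in the Fc receptor levels was not tested.

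RNA of immunoglobulin chains was also present, in part of chains of immunoglobulin G, the ligand of the receptors. The 13 genes of immunoglobulin constant chains and plasma cells summed to 18.2 to 76.4 FPKM in Baf53b siRNA and 8.17 to 11.7 FPKM in scrambled siRNA, against 5.06 to 5.41 FPKM in control; 4 were tested, Ighm rose in Baf53b siRNA against control in limma, and Ighe was at 0 in each library. Ighg2b, a heavy chain bound by the activating receptors, had 6.86 and 1.66 FPKM in Baf53b siRNA, was listed at 0 in both scrambled siRNA libraries, and had 0 and 0.0431 FPKM in control. Ighg1, the heavy chain of another subclass, had 3.96 and 0.778 FPKM in Baf53b siRNA and was listed at 0 in the other 4 libraries. Not all heavy chains separated the groups in this way. Ighg2c stood at 4.47 FPKM in Baf53b siRNA replicate 1 but at 0.374 FPKM in replicate 2. The latter lay below both scrambled siRNA libraries (0.660 and 0.510 FPKM) and control replicate 2 (0.808 FPKM). Only control replicate 1 was lower, at 0.301 FPKM. Ighd averaged less in Baf53b siRNA (0.256 FPKM) than in control (0.392 FPKM). Ighg2b, Ighg1, Ighg2c, Ighd and, below, Igkc were named after their values were seen.

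The kappa light chain gene Igkc had 38.1 and 3.26 FPKM in Baf53b siRNA and 0 and 1.59 FPKM in scrambled siRNA, against 0.122 and 0.0944 FPKM in control. Replicate 1 of Baf53b siRNA thus held most of the immunoglobulin RNA, and it was also the higher library of its group for each of the 5 Fc receptor genes. Without it, replicate 2 alone still stood above both libraries of scrambled siRNA and of control for each of the 5 genes.

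The genes around the members on the chromosome were read next. Fcgr2b, Fcgr4, Fcgr3 and Fcer1g lie on 1 stretch of chromosome 1, and Fcgr1 is on chromosome 3. Within 100 kb of a member there were 61 other genes, of which 22 were tested. In Baf53b siRNA against control 0 of the 22 were called, beside 1.23% of all genes tested, and nothing is read from that count. The log2 differences of the 22 genes ran from −0.38 to 0.50 with a median of 0.08 against control. Against scrambled siRNA they ran from −0.24 to 0.46 with a median of 0.02. Since the members were chosen with their values known, the gap between them and their neighbours is not read as a result. The 3 annotated genes that overlap a member (Gm38204 with Fcgr2b, Mir6546 with Fcgr3, Gm26110 with Fcgr4) were listed at 0 in each library.

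Tomm40l, a relative of a mitochondrial import channel that lies 7.06 kb from Fcer1g, averaged 28.8 FPKM in Baf53b siRNA, 30.8 FPKM in scrambled siRNA and 31.4 FPKM in control. Near Fcgr1, the synaptic vesicle gene Sv2a averaged 75.4 FPKM in Baf53b siRNA, 82.2 FPKM in scrambled siRNA and 78.0 FPKM in control, while the largest difference of any tested neighbour against control was that of the histone gene Hist2h2aa1, at 0.50, whose sequence is shared with near-identical copies.

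**Figure D4:**
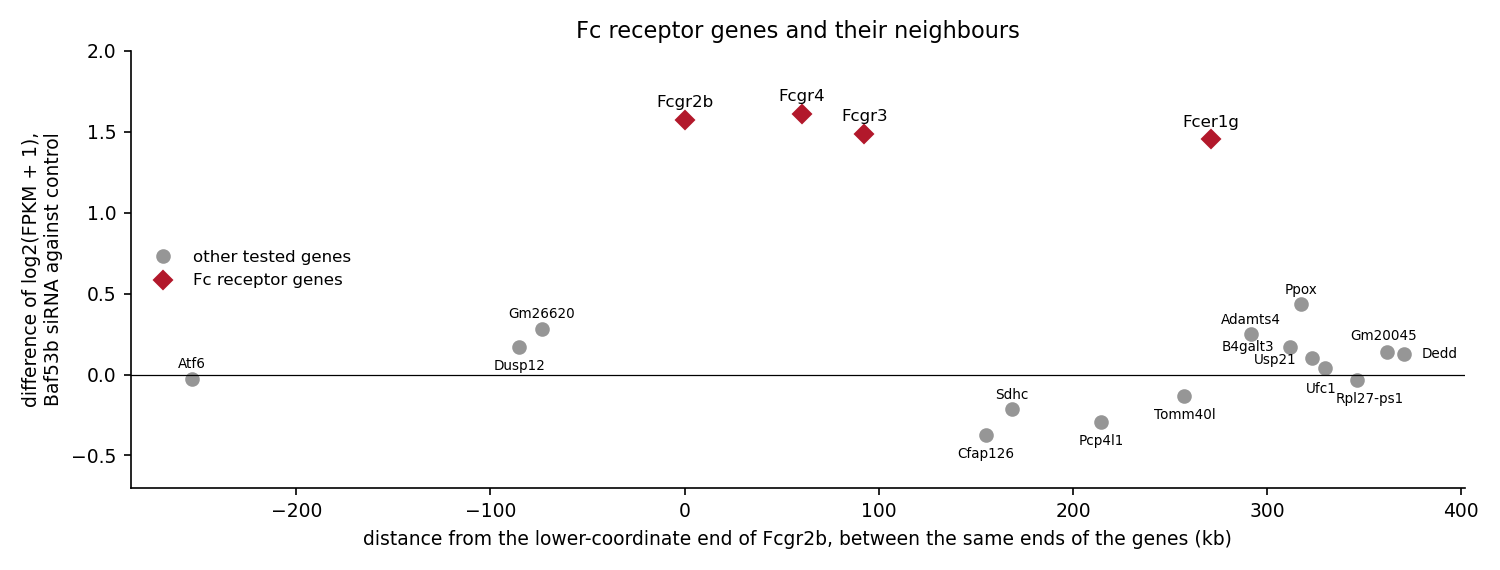
Difference of log2(FPKM + 1) in Baf53b siRNA against control (vertical axis) by distance from Fcgr2b in kb (horizontal axis) for the 4 Fc receptor genes on chromosome 1 (diamonds) and other tested genes within 100 kb of one of them (circles, each placed at its lower-coordinate end). The diamonds lie between 1.45 and 1.61, and the circles lie between −0.38 and 0.44.

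Across the 6 libraries, the genes most like each member were ranked by the root mean square difference between centred log2(FPKM + 1) profiles, on which 0 means the same profile. For Fcgr1 these were Ifit3 (0.0837), Fcer1g (0.104) and Arpc1b (0.128). For Fcgr2b they were Apobec3 (0.0530), Spi1 (0.0547) and Arpc1b (0.0764), and for Fcgr3 they were Csf3r (0.0816), Arpc1b (0.0822) and Ms4a6c (0.0869). Ifit3 is an interferon-induced gene, Spi1 encodes the myeloid factor PU.1, and Csf3r encodes the receptor of granulocyte colony-stimulating factor.

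For Fcer1g the most alike were Tlr2 (0.0874), Arpc1b (0.103) and Trem2 (0.104), and for Fcgr4 they were Ctsc (0.0930), Lcp1 (0.106) and Adgre1 (0.131). Arpc1b was thus among the 3 nearest for each member except Fcgr4. Among the members, Fcgr4 was the farthest from the others, with a difference of 0.217 from Fcgr3, 0.221 from Fcgr2b, 0.255 from Fcer1g and 0.285 from Fcgr1, whereas Fcgr2b and Fcgr3 differed by 0.116. These values describe 6 libraries that share their groups and say nothing on shared control.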

How the data were processed

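Polyadenylated RNA was sequenced from both ends with a stranded kit, per the labels' protocols. The submitters' processing notes name TopHat2 2.1.1, Cufflinks 2.2.1, bcl2fastq 2.19.1.403 and build mm10; which annotation release was used is not given in the sources used here. Per the file headers, each library's deposited table holds FPKM per gene with a confidence interval. Of 50383 gene IDs, 48 with several rows were summed and 4 with a failed estimate were left out; 50160 matched GENCODE M21, and 46613 of these had identical positions. Depth was implied from the interval, its half-width taken as that of a count. Since FPKM is relative to a library's fragments, abundant transcripts depress the values of the rest. Mitochondrial genes held 19.3% and 22.8% of summed FPKM in Baf53b siRNA, 15.0% and 26.9% in scrambled siRNA, and 19.4% and 29.5% in control.

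Values were log2(FPKM + 1). Genes with a mean of at least 1 FPKM were kept, 353 short RNA genes at that level were left out, and 14664 were tested with limma 3.58.1 in R 4.3.3 (all 6 libraries, 3 groups, trended eBayes, two-sided, Benjamini-Hochberg, called at adjusted p under 0.05), which was checked on simulated data. There were 3 residual degrees of freedom and 3.99 prior ones. This main fit has no replicate term; a fit with the replicate number as a block was an alternative. By the check used here the numbers may pair the libraries, which the main fit does not take into account. Deviations of same-numbered libraries correlated over genes in every pair of groups. The correlation was 0.359 for Baf53b siRNA and scrambled siRNA, 0.183 for Baf53b siRNA and control, and 0.390 for scrambled siRNA and control. Replicate 2 also had the higher implied depth and the higher mitochondrial share in each group. The labels do not say what a number marks, and the source of the correlations was not tested.

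The members and lists were chosen with earlier results of these data known. Genes named beyond the 5 members are every tested gene of the wider Fc family, genes called in Baf53b siRNA against scrambled siRNA and the 4 largest absolute differences per pathway list in that comparison, tested neighbours within 100 kb, and the 3 genes most alike in profile per member; others are named as chosen after their values were seen. Promoters are RefSeq sequences (GRCm38.p6). Shared runs come from GENCODE M21 transcripts, and strand-specific counting is not stated, so genes overlapping a member on the other strand are uncertain. Alternatives tried were another pseudocount, other filters, a replicate block, fits of the compared groups alone, equal medians, robust eBayes and leaving out each library. Some genes that this rule names are not reported here.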

Additional observations from a re-analysis of the deposited data

Results flagged for a closer look

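The tables also hold spike-in RNA, absent from the labels, that was measured outside the comparisons and was above the control libraries in all 4 siRNA libraries. Its 92 rows held 0.755% of all FPKM in Baf53b siRNA replicate 1, 0.128% in Baf53b siRNA replicate 2, 0.0340% in scrambled siRNA replicate 1 and 0.102% in scrambled siRNA replicate 2, against 0.0191% and 0.0195% in control. Its part in the Fc receptor levels was not tested.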

How the results depend on the processing

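The difference of each Fc receptor gene tested was positive in every setting and comparison. Over the members' values in all 3 comparisons, 164 kept their side of the threshold, 18 lost it and 0 reversed. Members were called in the main fit only in Baf53b siRNA against control, so all 18 losses fell in that comparison. In the other comparisons no call could be lost, so the 164 do not measure stability. For Baf53b siRNA against control, 2 of 5 members were called with no filter on low values, 3 of 3 with a mean of at least 5 FPKM, 3 of 5 with the replicate block, and 0 to 4 when 1 library was left out. The pathway count against control was 2 with no filter, 4 at a mean of at least 5 FPKM, 7 with equal medians and 0 to 9 with 1 library left out; it was 11 with the replicate block, which ended the call of Prkcd, Fcgr1 and Fcgr4 against control and of no other gene named here.

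Over all genes, the 18 called in Baf53b siRNA against scrambled siRNA became 1 with a pseudocount of 0.1, 0 with no filter, 8 at a mean of at least 5 FPKM, 30 with robust eBayes and 4 to 24 with 1 library left out (13 with the replicate block). The 181 called against control became 42 with no filter, 71 at a mean of at least 5 FPKM and 34 to 139 with 1 library left out (188 with the replicate block). In scrambled siRNA against control the count was 1 with the compared groups alone and 0 to 7 with 1 library left out. With 1 library left out, the log2 difference of Fcrls ran from −0.37 to 0.00323 against scrambled siRNA and from −0.00109 to 0.37 against control, reversing without Baf53b siRNA replicate 1 in the first and without Baf53b siRNA replicate 2 in the second. The causes were not tested. Where 1 library was left to a group, it was assumed to vary like the other groups. Depth limits Fcgr4 most, with 4 implied fragments over both control libraries.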
